A study of Mus musculus with 16 samples.

Results

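The 8 genes described here handle heme and iron, and they are the rows for Hmox1, Slc11a1, Slc40a1, Tfrc, Fth1, Ftl1, Cp and Blvrb among the 26382 genes of a bulk RNA sequencing table of mouse muscle. They were picked by symbol, as a list of genes with known roles. Heme oxygenase 1 (Hmox1) opens the heme ring and frees its iron, and biliverdin reductase B (Blvrb) acts on the bile pigments that follow. Slc11a1 is a metal transporter of the phagosome membrane in macrophages. The ferritin heavy and light chains (Fth1 and Ftl1) form the shell in which cells store iron, Tfrc is the receptor that takes up iron bound to transferrin, Slc40a1 (ferroportin) is the iron exporter, and ceruloplasmin (Cp) is a copper enzyme that oxidizes iron as it leaves cells. Macrophages that clear dead cells and red cells are known for recycling heme iron through these steps, and muscle fibres hold heme in myoglobin and in their mitochondria.

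The series models myositis, an inflammatory disease of muscle, by injecting recombinant histidyl-tRNA synthetase (HRS, also called Jo-1), an enzyme that is a target of autoantibodies in patients. All animals were female C57BL/6 mice aged 8 to 10 weeks, derived from C57BL/6J, and hamstring muscle was taken 14 days after the injection. The HRS group holds the legs of 5 mice (m862 to m866) given HRS at 3 to 5 mg/mL in a volume of 50 µL per side, and the contralateral PBS group holds the opposite legs of the same 5 mice. The PBS-only group holds both legs of 2 mice (m867 and m868) that received PBS alone, and the HRS-MBP group holds 1 library from each of 2 mice (m860 and m861) whose sample titles name a fusion protein with MBP at 2 to 3 mg/mL. Every HRS leg is a left leg and every contralateral PBS leg is a right leg, so that side and injection cannot be told apart in that comparison. The leg of the HRS-MBP libraries is not stated, their treatment label gives HRS at 3 to 5 mg/mL in place of the fusion protein, and the protocol text describes injection of both sides with the same agent, whereas the sample titles name the agent leg by leg. The groups used here follow the titles and the treatment labels together.

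The 16 libraries had an implied depth of 8600000 to 73900000 reads, to 3 digits, and the value that 3 reads would give ranged from 0.0324 to 0.364 normalized counts, below every value of the 8 genes. Markers of muscle fibres were high in every library, with a summed level of 12 genes of 50889 to 215487 in HRS legs against 159316 to 261668 in contralateral PBS legs. The summed level of 14 macrophage markers was 1458 to 7659 in HRS legs, 194 to 435 in contralateral PBS legs, 167 to 333 in PBS-only legs and 6655 to 6817 in HRS-MBP libraries. The summed level of 10 neutrophil genes was 10.7 to 147 in HRS legs and 1.28 to 3.69 in contralateral PBS legs. The summed level of erythroid genes, nearly all of it globin, was 198 to 474 in HRS legs and 287 to 653 in contralateral PBS legs. Of 4 tested erythroid genes, none was called in HRS against contralateral PBS, with 3 lower at an adjusted p under 0.05. The red cell precursor genes Klf1 and Epb42 were near 0 in all 16 libraries. Mouse m866 stood apart. Its HRS leg had the lowest macrophage level of the HRS group, and its contralateral PBS leg had an adipocyte marker level of 3015, against a median of 537 in that group. In bulk tissue, fewer cells of a type and less RNA per cell cannot be told apart.

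In GRCm38, all 8 are protein-coding genes. Hmox1 lies at chr8:75093621-75100589, Blvrb at chr7:27447978-27466144, Slc11a1 at chr1:74375195-74386062, Tfrc at chr16:32608920-32632794, Fth1 at chr19:9980598-9985098 and Cp at chr3:19957054-20009145, all on the plus strand. Slc40a1 lies at chr1:45908068-45926523 and Ftl1 at chr7:45457944-45459884, both on the minus strand. Iron controls several of these genes after transcription, through a hairpin in the messenger RNA called the iron-responsive element. When iron is scarce, the iron regulatory proteins bind it. In the 5′ UTR they then block translation, and in the 3′ UTR they protect the message from decay. A search for this hairpin in the transcripts of GENCODE M21 (mouse build GRCm38) is shown because it divides the 8 genes in a way that their choice did not use. The pattern was an unpaired C, 5 bases, the loop CAGTGN with a last base other than G, and 5 bases that pair with those before the loop, with G-U pairs allowed, on the transcript strand. It was found in the 5′ UTR of 0.096% and the 3′ UTR of 0.448% of 21875 protein-coding genes. Of the 8 genes, Fth1, Ftl1 and Slc40a1 held it in the 5′ UTR, within exon 1, and Tfrc held 4 copies in the 3′ UTR, within exon 19. No match was found in Hmox1, Slc11a1, Cp and Blvrb. The sites are written as DNA, 29 bases each, with the 6 bases of the loop in capitals.
Fth1, chr19:9982732-9982760, plus strand: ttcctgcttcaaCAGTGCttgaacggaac
Ftl1, chr7:45459779-45459807, minus strand: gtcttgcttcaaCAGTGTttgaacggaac
Slc40a1, chr1:45925465-45925493, minus strand: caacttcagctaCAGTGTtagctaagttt
Tfrc site 1, chr16:32631219-32631247, plus strand: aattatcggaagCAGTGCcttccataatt
Tfrc site 2, chr16:32631598-32631626, plus strand: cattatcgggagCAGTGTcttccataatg
Tfrc site 3, chr16:32631663-32631691, plus strand: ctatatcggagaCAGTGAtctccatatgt
Tfrc site 4, chr16:32631710-32631738, plus strand: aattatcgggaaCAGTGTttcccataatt
RNA sequencing measures the level of a message and not its translation. Among the wider heme and iron genes listed below, Alas2 held the same hairpin in its 5′ UTR and Bola3 in its 3′ UTR. In RefSeq promoter windows of GRCm38.p6, from 250 bases before to 50 after a gene's start, 10 windows of 6 of the 8 genes, all but Hmox1 and Slc40a1, were searched on both strands for TGACNNNGC, the core of the antioxidant response element. None held it, against 12.4% of all 32851 windows. So few windows cannot show that the element is rare near these genes, and sequence further from the start was not searched.

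The first comparison set the HRS legs against the PBS legs of the same mice. Its main fit held no term for the mouse, and a fit with one is given in the section on processing. Of the 8 genes, 5 were higher in HRS legs: Hmox1, Slc11a1, Ftl1, Cp and Blvrb. None was lower, and Slc40a1, Tfrc and Fth1 did not pass the test. A gene was called when limma gave a Benjamini-Hochberg adjusted p under 0.05 over 16414 tested genes and a log2 fold change beyond 1 in either direction, and by that rule 23.2% of all tested genes were called, 16.9% higher and 6.27% lower, and the 5 of 8 is to be read against that share. The median log2 fold change of the 8 genes was 1.77, against 0.08 over all tested genes. The 4 genes with no hairpin match were all called, and of the 4 genes with one, Ftl1 was called.

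**Figure D1:**
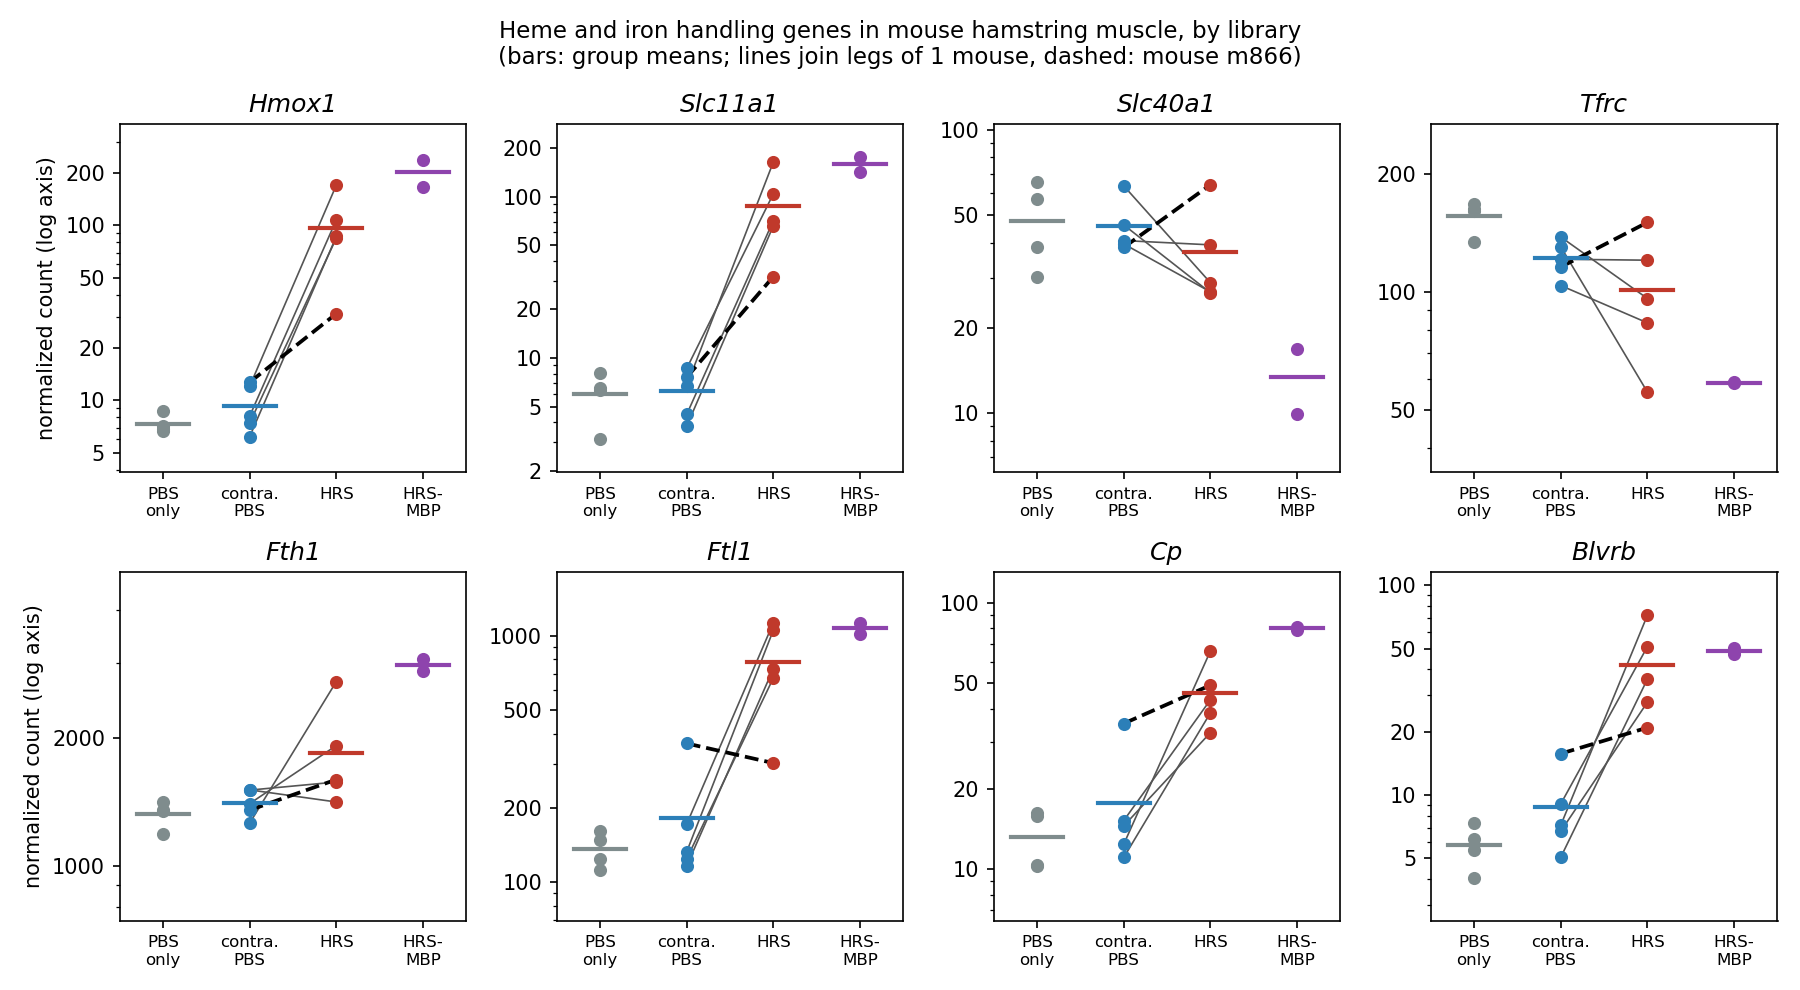
Normalized counts (log axis) of the 8 genes in the 16 libraries, by group. Points are libraries, horizontal bars are group means, lines join the PBS and HRS legs of 1 mouse, and the dashed line is mouse m866. The 5 HRS legs sit above all contralateral PBS legs for Hmox1, Slc11a1 and Blvrb, and the HRS-MBP libraries lie lowest for Slc40a1.

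Among the genes of heme breakdown, Hmox1 stood at 86.5, 108, 170.1, 84.7 and 31.3 normalized counts in the HRS legs of m862 to m866, and at 6.22, 8.14, 12.1, 7.44 and 12.7 in their PBS legs. Each of the 5 HRS legs was above all 5 PBS legs, and the leg of m866 was the lowest of the HRS legs. The difference was 3.16 on the log2 scale (SE 0.33, limma adjusted p = 4.83e-06), and the ratio of the legs within a mouse was 11.4 to 14.1 in 4 mice and 2.47 in m866. Blvrb, the reductase of the same pathway, stood at 35.8, 51.1, 72.2, 27.8 and 21.002 in the HRS legs and at 5.06, 9.10, 7.21, 6.73 and 15.8 in the PBS legs. These groups did not overlap either, although the lowest HRS leg and the highest PBS leg, both of m866, were close. Its log2 difference was 2.15 (SE 0.31, limma adjusted p = 7.70e-05). The other forms of these enzymes, Hmox2, the constitutive heme oxygenase, and Blvra, the main biliverdin reductase of adults, are named here after their values were seen. Hmox2 had a log2 difference of 0.28 and Blvra of 0.76, both with an adjusted p under 0.05 and neither past the fold limit.

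Slc11a1, the phagosome metal transporter, had the highest log2 fold change of the 8 genes. It stood at 66.1, 104, 164, 71.1 and 31.97 normalized counts in the HRS legs and at 3.78, 8.62, 6.74, 4.47 and 7.59 in the PBS legs. The groups did not overlap, and the ratio within a mouse was 12.1 to 24.4 in 4 mice and 4.21 in m866. The log2 difference was 3.57 (SE 0.36, limma adjusted p = 3.44e-06). Across the tested genes, every HRS value lay above every PBS value for 18.3%, and for 3 of the 8 genes, Hmox1, Slc11a1 and Blvrb.

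Of the ferritin chains, Ftl1 was called and Fth1 was not, with no test of one chain against the other. Ftl1 stood at 673, 1128, 1053, 734 and 303 normalized counts in the HRS legs and at 124, 171, 132, 116 and 365 in the PBS legs. In 4 mice the HRS leg was 5.43 to 7.96 times the PBS leg, while in m866 it was 0.832 times the PBS leg, whose value was the highest of the PBS group. The log2 difference was 2.11 (SE 0.34, limma adjusted p = 0.000186), and it was 2.699 with both libraries of m866 left out. Fth1, whose level was already high, stood at 1573, 1916, 2711, 1411 and 1594 in the HRS legs and at 1505, 1399, 1258, 1507 and 1350.5 in the PBS legs. These groups overlapped, since the HRS leg of m865 lay below 2 of the PBS legs. Its log2 difference was 0.35 (95% interval −0.04 to 0.75, limma adjusted p = 0.107).

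The Ftl1 row carries a limit of its own. The processed pseudogene Ftl1-ps1 was listed at values close to those of Ftl1, at 316 to 1086 in HRS legs and 114 to 351 in PBS legs, so that reads may have been split between near-identical rows in the authors' counting and the level of Ftl1 is uncertain. Ftl1 made up 48.8 to 52.7% of the sum of both rows in the HRS, contralateral PBS and PBS-only libraries, and 59.2% in both HRS-MBP libraries. With both rows summed, the log2 difference between HRS and contralateral PBS was 2.10, against 2.11 for Ftl1 alone. The ratio of Fth1 to that sum was 1.22, 0.867, 1.27, 0.971 and 2.57 in the HRS legs and 6.14, 3.98, 4.78, 6.56 and 1.89 in the PBS legs. It was lower in the HRS leg in 4 mice and higher in m866, and it was 4.13 to 5.69 in PBS-only legs and 1.501 and 1.79 in HRS-MBP libraries. The ratio is set by message levels of rows of unequal length, and it is not a ratio of ferritin subunits.

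**Figure D2:**
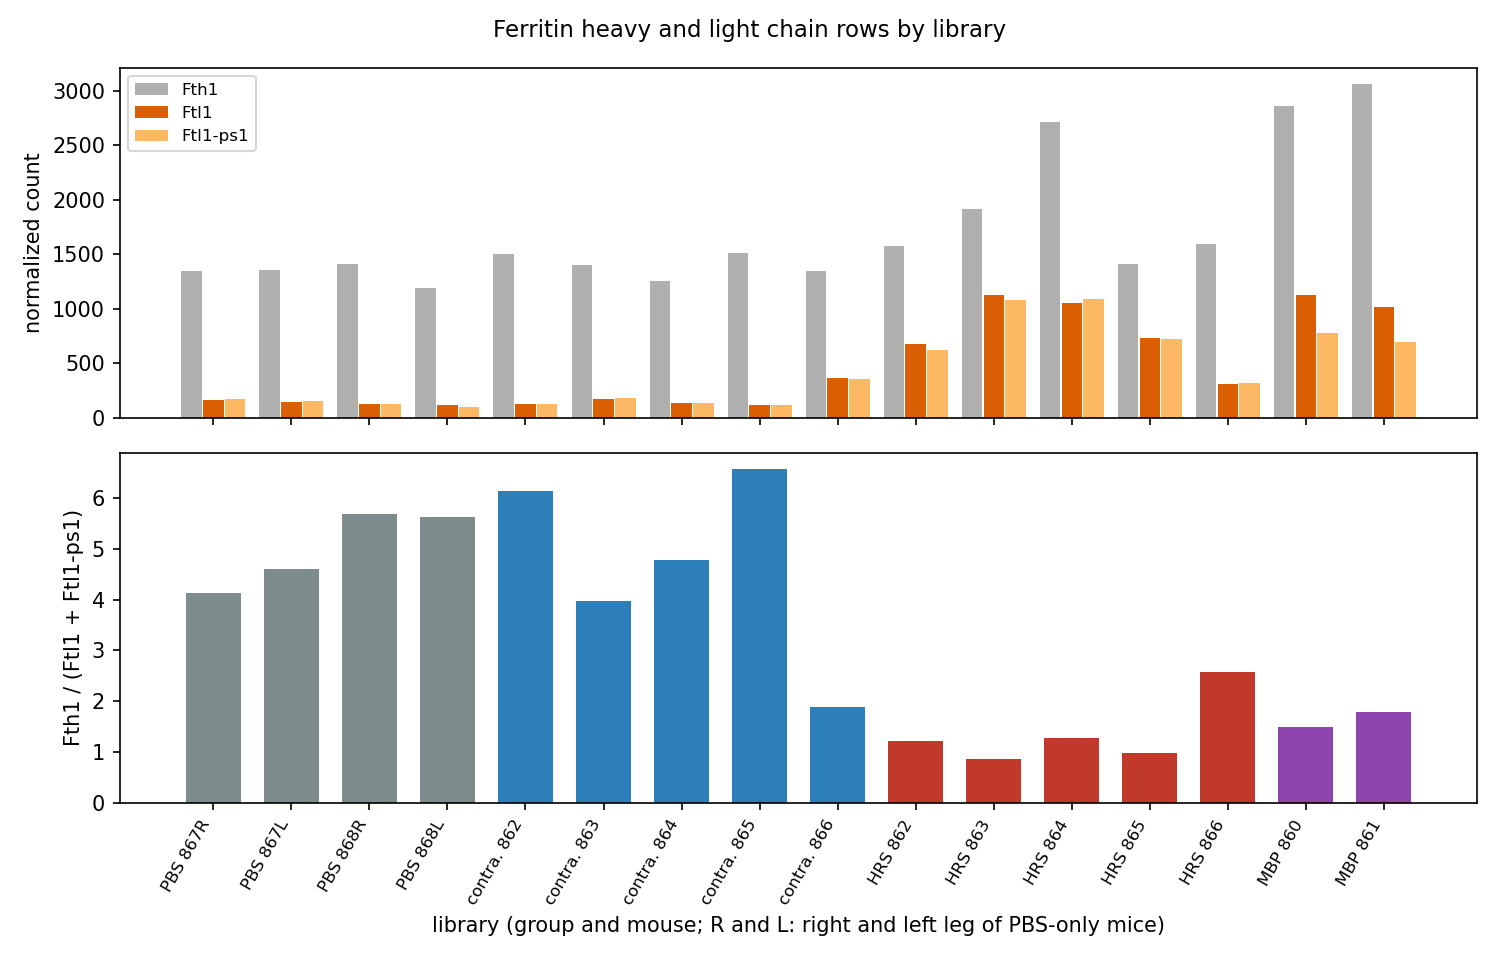
Ferritin rows in each library. Upper panel: normalized counts of Fth1, Ftl1 and the pseudogene Ftl1-ps1. Lower panel: ratio of Fth1 to the sum of Ftl1 and Ftl1-ps1, coloured by group. The ratio lies at 3.98 or above in 8 of the 9 PBS libraries, at 1.89 in the PBS leg of m866, and at 0.867 to 2.57 in HRS and HRS-MBP libraries.

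On the side of iron release, Cp stood at 38.6, 43.1, 65.8, 32.5 and 49.0 normalized counts in the HRS legs and at 11.03, 15.2, 12.4, 14.5 and 35.1 in the PBS legs. The HRS leg was higher in all 5 mice, but the PBS leg of m866 lay above the HRS leg of m865. The log2 difference was 1.44 (SE 0.27, limma adjusted p = 0.000536). Slc40a1, the exporter that Cp works beside, stood at 26.6, 28.8, 26.8, 39.2 and 64.0 in the HRS legs and at 46.1, 63.4, 39.5, 40.6 and 38.5 in the PBS legs. It was lower in the HRS leg of 4 mice, by as little as a ratio of 0.966 in m865, and higher in m866. The log2 difference was −0.36 (95% interval −0.91 to 0.20, limma adjusted p = 0.248), and rescaling of every library to the same total turned it to 0.06. With both libraries of m866 left out it was −0.63 with an adjusted p of 0.0291, still within the fold limit.

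Tfrc, the receptor for iron uptake, stood at 120.4, 96.1, 55.5, 83.3 and 150.3 normalized counts in the HRS legs and at 121, 138, 130.1, 104 and 116 in the PBS legs. The HRS legs held both the lowest value, in m864, and the highest, in m866, so that the groups overlapped in full. The log2 difference was −0.34 (95% interval −0.75 to 0.08, limma adjusted p = 0.146), and it was 0.08 after rescaling to the same total. Its 4 hairpins in the 3′ UTR were the most of any of the 8 genes.

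Read without a model across genes, the 5 against 5 libraries gave an exact two-sided permutation p of 0.00794 for Hmox1, Slc11a1 and Blvrb, which is the smallest this design allows, 0.0159 for Ftl1 and Cp, 0.0397 for Fth1, 0.246 for Slc40a1 and 0.238 for Tfrc. These are 8 tests with no adjustment, and no other gene was tested in this way. Fth1 passes here and not in limma, and with 1 mouse left out its exact permutation p was 0.0286 to 0.143. Exact sign flips over the 5 mice cannot go below 0.0625, the value that Hmox1, Slc11a1, Cp and Blvrb gave, and were 0.13 for Ftl1, 0.1875 for Fth1 and 0.3125 for Slc40a1 and Tfrc. For these 4 genes the HRS leg exceeded the PBS leg in 5 of 5 mice, as it did for 26.3% of all tested genes.

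**Figure D3:**
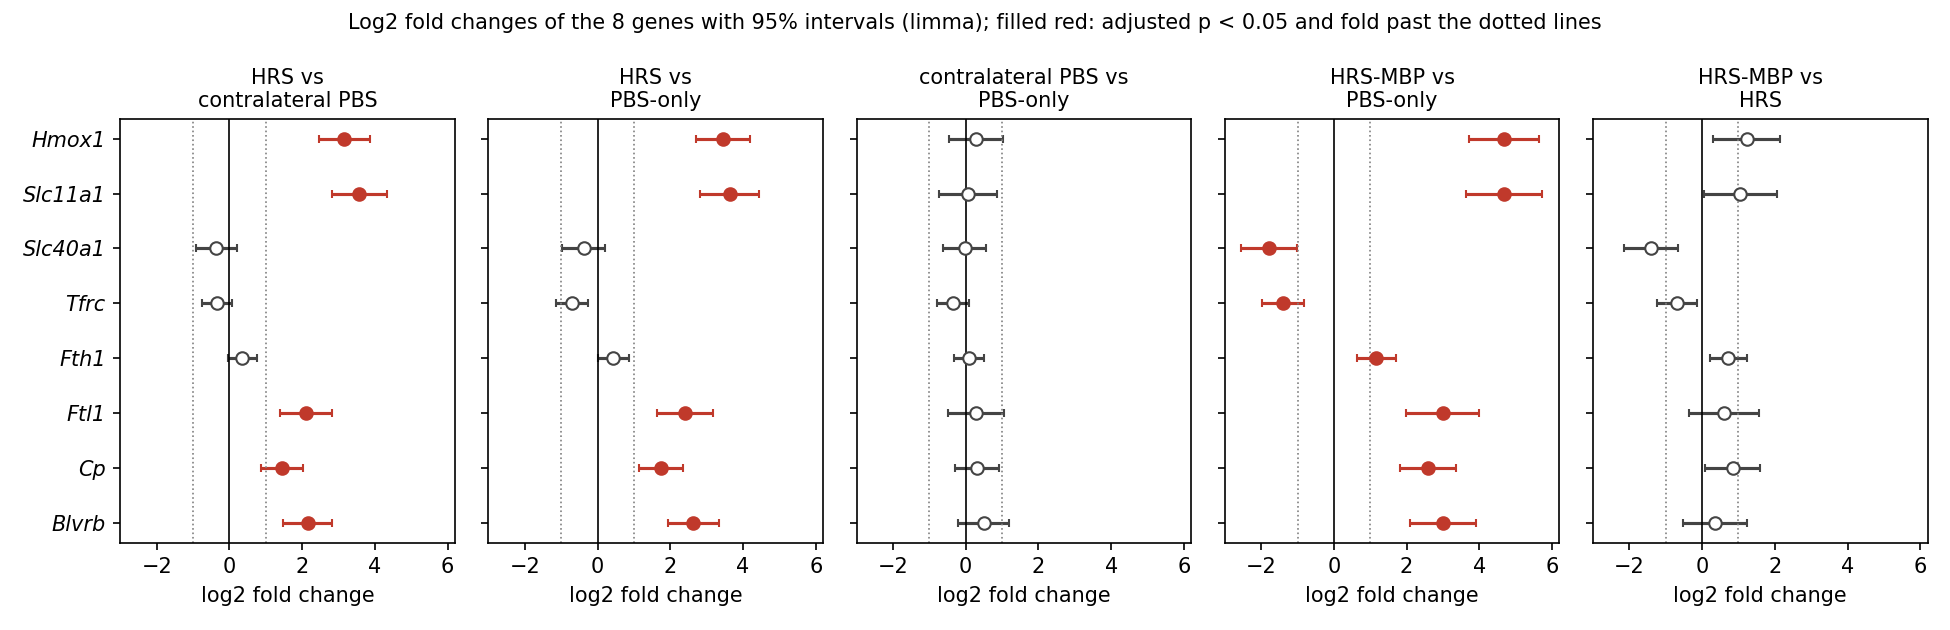
Log2 fold changes of the 8 genes in the 5 comparisons, on the log2(normalized count + 0.5) scale. Points are limma estimates and bars their 95% intervals, filled red where the adjusted p is under 0.05 and the fold lies past the dotted lines at 1 and −1. 5 genes are filled against either PBS group, 8 in HRS-MBP against PBS-only, and none in the remaining comparisons.

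Against PBS-only legs, the same question was asked with mice that had received no HRS. The 5 genes called were again Hmox1, Slc11a1, Ftl1, Cp and Blvrb, all higher, where 24.8% of all tested genes were called, 18.9% higher and 5.87% lower. This comparison shares its HRS libraries with the first and is no separate evidence. Their levels in the 4 PBS-only legs were 6.65 to 8.67 for Hmox1, 3.13 to 8.04 for Slc11a1, 111 to 160.1 for Ftl1, 10.2 to 16.3 for Cp and 4.04 to 7.40 for Blvrb. Every HRS leg lay above every PBS-only leg for all 5 genes and, by a narrow margin, for Fth1, at 1188 to 1410.4 in PBS-only legs against 1411 in the lowest HRS leg. Such separation held for 26.6% of all tested genes. The log2 differences were 3.44 for Hmox1, 3.63 for Slc11a1, 2.39 for Ftl1, 1.75 for Cp and 2.64 for Blvrb. Tfrc stood at 163, 167, 134 and 160.2 in the PBS-only legs, where only the HRS leg of m866, at 150.3, reached into their range. Its log2 difference was −0.70 (SE 0.21, limma adjusted p = 0.00980), within the fold limit, and its adjusted p was 0.0531 once both legs of a PBS-only mouse had been averaged. Fth1 had a log2 difference of 0.44 (limma adjusted p = 0.0640) and Slc40a1 of −0.38 (limma adjusted p = 0.246), and Slc40a1 came to 0.01 after rescaling to the same total. The 4 PBS-only libraries come from 2 mice, and p-values that use them in part measure the spread between legs.

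The contralateral PBS legs were compared with PBS-only legs to see whether the PBS side of the HRS mice differed from mice that had received no HRS. By limma none of the 8 genes was called and none had an unadjusted p under 0.05, where 0.00609% of all tested genes were called and 5.50% had an unadjusted p under 0.05. The log2 differences were −0.36 for Tfrc (95% interval −0.80 to 0.08), 0.49 for Blvrb (−0.22 to 1.20), 0.31 for Cp (−0.29 to 0.91), 0.29 for Ftl1 (−0.48 to 1.06) and 0.28 for Hmox1 (−0.46 to 1.03). Those of Fth1, Slc11a1 and Slc40a1 were 0.08, 0.06 and −0.02. With m866 left out, Ftl1 and Cp came to 0.00 and 0.03. The intervals allow differences of up to 1.20 on the log2 scale, the upper bound of Blvrb.

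The HRS-MBP libraries differed from PBS-only legs in all 8 genes, 6 of them higher and 2 lower, where 30.9% of all tested genes were called, 20.7% higher and 10.2% lower. Hmox1 stood at 165 and 237 normalized counts, a log2 difference of 4.67 (SE 0.45, limma adjusted p = 2.79e-06). Slc11a1 stood at 143 and 176, a log2 difference of 4.68. Blvrb, at 47.0 and 50.5, and Cp, at 81.2 and 78.8, rose by 3.00 and 2.59 on the log2 scale.

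Both ferritin chains rose in the HRS-MBP libraries. Fth1, at 2866 and 3062, lay above all 14 other libraries, with a log2 difference from PBS-only of 1.16 (SE 0.25, limma adjusted p = 0.00159). Ftl1, at 1129.6 and 1013, differed by 2.99, or by 2.76 with the pseudogene row added. The iron exporter and the uptake receptor fell. Slc40a1 stood at 16.8 and 9.90, below all other libraries, and fell by 1.78 on the log2 scale (SE 0.36, limma adjusted p = 0.000959). Tfrc stood at 58.6 and 58.9 and fell by 1.40 (SE 0.27, limma adjusted p = 0.000649), or by 0.94 and within the fold limit after rescaling to the same total. All 8 genes were separate between these 2 libraries and the 4 PBS-only legs, as were 39.8% of all tested genes upward and 30.6% downward.

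Set against the HRS legs directly, the HRS-MBP libraries gave no call among the 8 genes, where 0.463% of all tested genes were called, 0.396% higher and 0.067% lower, and 14.4% had an unadjusted p under 0.05. Of the 8 genes, 6 had an unadjusted limma p under 0.05. The largest difference was that of Slc40a1, −1.40 on the log2 scale (SE 0.35, limma adjusted p = 0.0921), with both HRS-MBP values below all 5 HRS values, as for 8.4% of all tested genes. Hmox1 followed at 1.23 (SE 0.44, limma adjusted p = 0.228), then Slc11a1 at 1.05, Cp at 0.84, Fth1 at 0.73 and Tfrc at −0.70. Fth1 and Cp were higher in both HRS-MBP libraries than in any HRS leg, as were 7.1% of all tested genes. Without the HRS leg of m864, Slc40a1 and Hmox1 were called, at −1.49 and 1.48 with limma adjusted p-values of 0.0231 and 0.0346, in a fit that called 590 genes, 3.59% of all tested. The agent, its concentration and possibly the side injected differ between these groups and cannot be told apart.

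The order of the group means can be read for each gene. For Hmox1, Slc11a1, Fth1, Ftl1, Cp and Blvrb it ran HRS-MBP, HRS, contralateral PBS, PBS-only, from high to low, with the last step and the first step not past the test for any of them and the middle step past it for all but Fth1. For Slc40a1 and Tfrc it ran the other way, PBS-only, contralateral PBS, HRS, HRS-MBP, with means of 47.7, 45.6, 37.1 and 13.4 for Slc40a1 and of 156, 122, 101 and 58.7 for Tfrc. No single step of these orders passed the test for Slc40a1 or Tfrc. Compared per kilobase of exon, and with Ftl1 counted without its pseudogene row, Fth1 was the most abundant of the 8 messages in every group, at 850 ± 61.4 (SD, n = 4) in PBS-only and 1182 ± 334 (SD, n = 5) in HRS legs, and Ftl1 came next, at 140.1 ± 22.8 and 804 ± 341. With Ftl1-ps1 added to Ftl1, the order turned in HRS legs, at 1593 ± 679 (SD, n = 5) for the sum. Hmox1 had rank 5 in PBS-only and rank 3 in HRS legs, at 4.68 ± 0.581 and 61.2 ± 31.9. Slc40a1 had ranks 4 and 7, at 14.2 ± 4.81 and 11.01 ± 4.72.

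Macrophage markers, which include none of the 8 genes, moved with the genes that rose. All 14 of them were higher in HRS legs than in contralateral PBS legs, with a median log2 difference of 3.24, and Lyz2, Ctss and C1qb were the most abundant. Hmox1 and Slc11a1 were high in the libraries with a high summed marker level, the HRS leg of m866 included as the lowest of the HRS group for all of them. Other cell type markers moved with the same results. In HRS against contralateral PBS legs, the summed level was 2714 to 25547 against 1286 to 2988 for fibroblast, 22.8 to 146 against 1.79 to 3.79 for T cell, 4.05 to 24.0 against 0.676 to 1.40 for B cell and 53.5 to 183 against 20.3 to 32.4 for proliferation markers. The part of these cell types in the results was not tested.

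**Figure D4:**
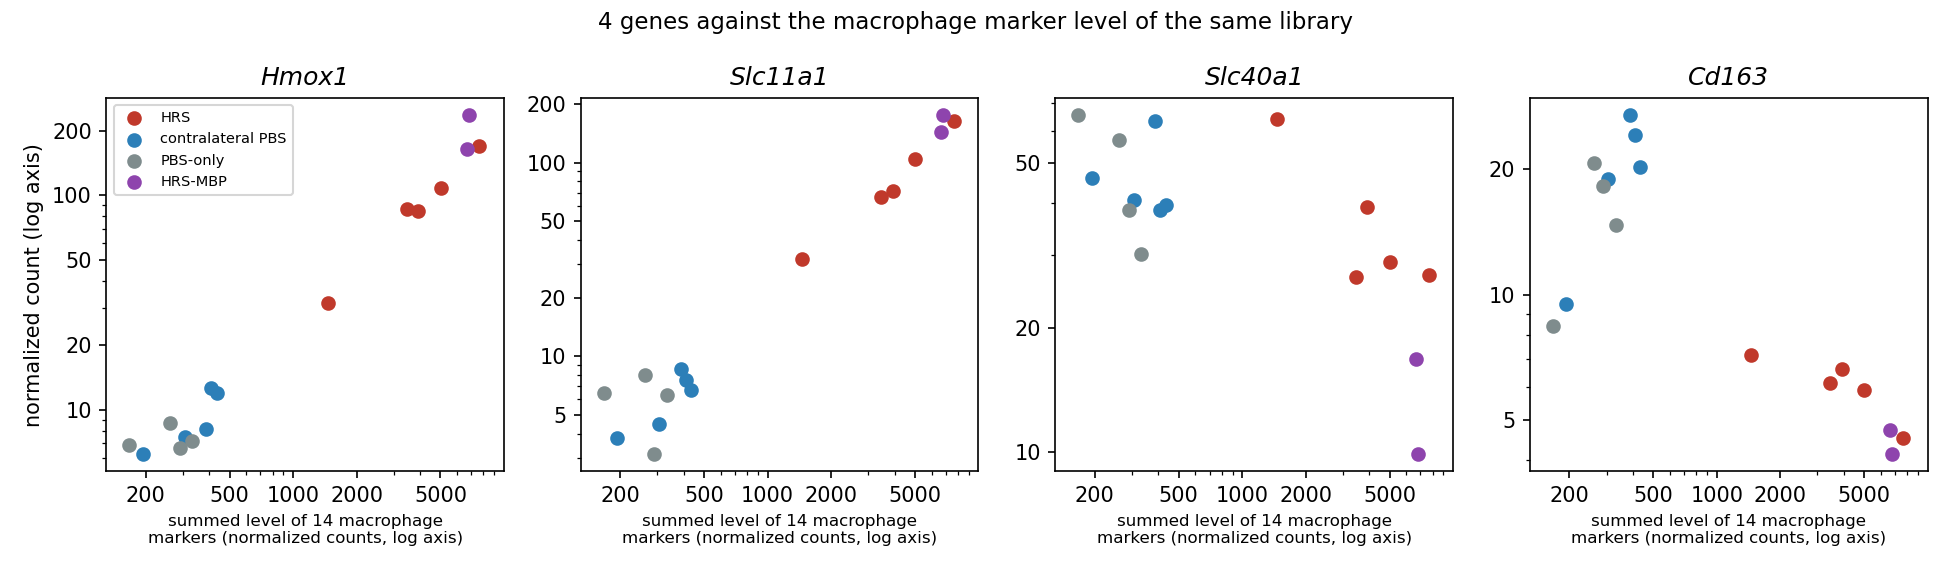
Normalized counts of Hmox1, Slc11a1, Slc40a1 and Cd163 (vertical, log axis) against the summed level of 14 macrophage markers in the same library (horizontal, log axis), coloured by group, 16 libraries. Hmox1 and Slc11a1 climb with the markers from 167 to 7659, while Slc40a1 is lowest in the HRS-MBP libraries, and Cd163 is at 7.17 or below in all HRS and HRS-MBP libraries.

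The contralateral PBS leg of m866 touches the results of Ftl1, Cp and Blvrb. It held 365, 35.1 and 15.8 normalized counts of these genes, against 116 to 171, 11.03 to 15.2 and 5.06 to 9.10 in the other 4 PBS legs. In the same leg Adipoq, an adipocyte hormone, stood at 344 against 21.6 to 51.1 in the others, and the iron carrier gene Trf at 407 against 55.3 to 90.0. Its Hmox1 and Slc11a1, at 12.7 and 7.59, were within or close to the range of the other PBS legs. The same leg had a summed level of 8 Schwann cell markers of 638.9, against 141 to 266 in the other PBS legs, and the lowest muscle fibre level of the PBS legs, 159316. The part of these cell types in the values of this leg was not tested.

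Wider lists of heme and iron genes, from which the 8 were left out, showed how far other steps of the pathway moved between the legs of the HRS mice. In heme synthesis, none of 9 genes was called in either direction. Their median log2 difference was −0.58, against 0.08 over all tested genes, and 8 of the 9 were lower with an adjusted p under 0.05 but within the fold limit, as were, at any fold, 25.9% of all tested genes and 8 of 12 muscle fibre markers. Against PBS-only legs 1 of the 9 (11.1%) was called, Alas2, the form of that enzyme in red cell precursors, at −1.08, where 5.87% of all tested genes were called lower. In that comparison 1 of 4 tested erythroid markers was called lower and all 4 were lower with an adjusted p under 0.05, with a median log2 difference of −0.92, and their part in this result was not tested. The level of Alas2 was low throughout, at 1.90 to 4.84 in HRS legs. It stood at 4.26 and 4.68 in the PBS-only legs of m867 and at 9.42 and 8.53 in those of m868. Both m867 values lay below that of the HRS leg of m866. The summed erythroid level of these PBS-only legs was 428 and 424 in m867 and 717 and 592 in m868.

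In heme breakdown and transport, 2 of 10 tested genes (20%) were higher and 1 (10%) was lower, against 16.9% and 6.27% of all tested genes. Lrp1, a receptor that takes up heme bound to hemopexin, had a log2 difference of 1.32 (limma adjusted p = 0.00142), and Hp, which encodes the hemoglobin carrier haptoglobin, of 1.18 (limma adjusted p = 0.0245). Both were higher in the HRS leg of m862 to m865. In m866 both were lower there, at 173 against 238 for Lrp1 and 96.3 against 112 for Hp, and the groups overlapped. The gene that fell was Cd163, the macrophage receptor for haptoglobin-bound hemoglobin. It stood at 6.14, 5.92, 4.54, 6.64 and 7.17 normalized counts in the HRS legs and at 9.49, 27.0, 20.3, 18.9 and 24.1 in the PBS legs, with no overlap, and its log2 difference was −1.57 (limma adjusted p = 0.000228). In PBS-only legs it stood at 8.41 to 20.7 and in HRS-MBP libraries at 4.73 and 4.14. Cd163 was lower in the HRS and HRS-MBP groups, where the macrophage markers were higher, than in the PBS groups. Between the PBS groups it went with the markers, with medians of 20.3 in contralateral PBS and 16.5 in PBS-only legs. The medians of the summed markers there were 387 and 275. Among the PBS libraries of each group its lowest value, 9.49 and 8.41, was in the leg with the lowest marker level.

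In iron uptake and transport, 3 of 16 tested genes (18.8%) were higher, against 16.9% of all tested genes, and none was lower. Without Steap1, whose direction the filter on low values fixed, 2 of 15 were higher. Steap2, a metalloreductase, stood at 5.53, 9.38, 9.02, 10.2 and 2.31 in the HRS legs, all above the 0.32 to 1.55 of the PBS legs, with a log2 difference of 2.41 (limma adjusted p = 5.77e-05). Lcn2, which binds iron-carrying siderophores and is abundant in neutrophils, differed by 1.71. Steap1, of the same family as Steap2, had a mean of 1.56 in HRS and 0.165 in contralateral PBS legs, and passed that filter only through the groups where it was high. Of 18 tested genes of ferritin turnover and mitochondrial iron use, 4 (22.2%) were lower, against 6.27% of all tested genes, and none was higher. Bola3 and Isca1, both of iron-sulfur cluster assembly, differed by −1.19 and −1.12, and Cisd1, of the mitochondrial outer membrane, by −1.02. All were lower in the HRS leg of m862 to m865. In m866 the HRS leg was higher, at 57.9 against 50.3 for Bola3, 230 against 183 for Isca1 and 137 against 115 for Cisd1. In all, 15 of these 18 genes were lower with an adjusted p under 0.05 at any fold, against 25.9% of all tested genes. Muscle fibre markers moved the same way, with 8 of 12 lower at that limit and 6 of 12 called. The share of mitochondrially encoded genes in the summed normalized counts was 3.41 to 6.29% in 4 HRS legs, 11.1% in that of m866, 9.69 to 11.2% in contralateral PBS legs, 11.3 to 13.1% in PBS-only legs and 5.94 and 6.98% in HRS-MBP libraries. The part of fibre content in the results of this list and of heme synthesis was not tested.

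Of 15 tested regulators of iron balance, 2 (13.3%) were higher and 2 (13.3%) lower, against 16.9% and 6.27% of all tested genes. Spic, the transcription factor of heme-recycling macrophages, stood at 0.07 to 0.23 in PBS legs and at 1.85, 1.62, 3.57, 2.95 and 0.31 in HRS legs. It passed the filter only through the groups where it was high, and without it 1 of 14 was higher. Hif1a, the oxygen-regulated factor, stood at 70.7, 91.7, 152, 94.0 and 40.7 in the HRS legs and at 22.8 to 31.9 in the PBS legs, a log2 difference of 1.62. Bmp6 and Hjv, which act upstream of the iron hormone hepcidin, differed by −1.27 and −1.25. In m866 Hjv was higher in the HRS leg, at 781 against 663, and Bmp6 stood at 19.1 against 21.6. Both were lower in the HRS leg of m862 to m865. Of 10 tested targets of the transcription factor NRF2, which also acts on Hmox1 and the ferritins, 1 (10%) was higher and 2 (20%) were lower, against the same shares. Slc7a11, the cystine transporter, stood at 3.31, 7.95, 15.7, 5.03 and 0.75 in HRS legs against 0.03 to 0.37 in PBS legs, and it too passed the filter only through the groups where it was high, which leaves 0 of the other 9 higher. Me1 and Nqo1 differed by −1.72 and −1.49. Nqo1 was lower in the HRS leg of m862 to m865 and higher in that of m866, at 40.4 against 32.2. Me1 is an abundant adipocyte enzyme, and 7 of 8 adipocyte markers were lower in HRS legs. Muscle fibre markers were lower too, with 6 of 12 called. Among HRS legs Me1 was highest in m866, at 234 against 38.8 to 80.4, and that leg had the highest fibre level. Among PBS legs it was also highest in m866, at 368 against 213 to 295, the leg with the highest adipocyte level. The part of adipose tissue and of fibre content in these results was not tested.

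Of the 78 tested genes of these lists, limma called 17 (21.8%) in HRS against contralateral PBS, where 23.2% of all tested genes were called. It called 20 (25.6%) in HRS against PBS-only and 26 (33.3%) in HRS-MBP against PBS-only, where 24.8% and 30.9% of all were called. By direction, 10.3%, 14.1% and 15.4% were higher, against 16.9%, 18.9% and 20.7% of all. Lower were 11.5%, 11.5% and 17.9%, against 6.27%, 5.87% and 10.2%. The 17 include Steap1, Spic and Slc7a11, which passed the filter on low values only through the groups where they were high. Hephl1, at means of 1.04 in HRS and 0.143 in PBS-only legs, passed it in the same way. Limma called 0 in contralateral PBS against PBS-only legs, with 5 at an unadjusted p under 0.05, and 0 in HRS-MBP against HRS, with 9.

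**Figure D5:**
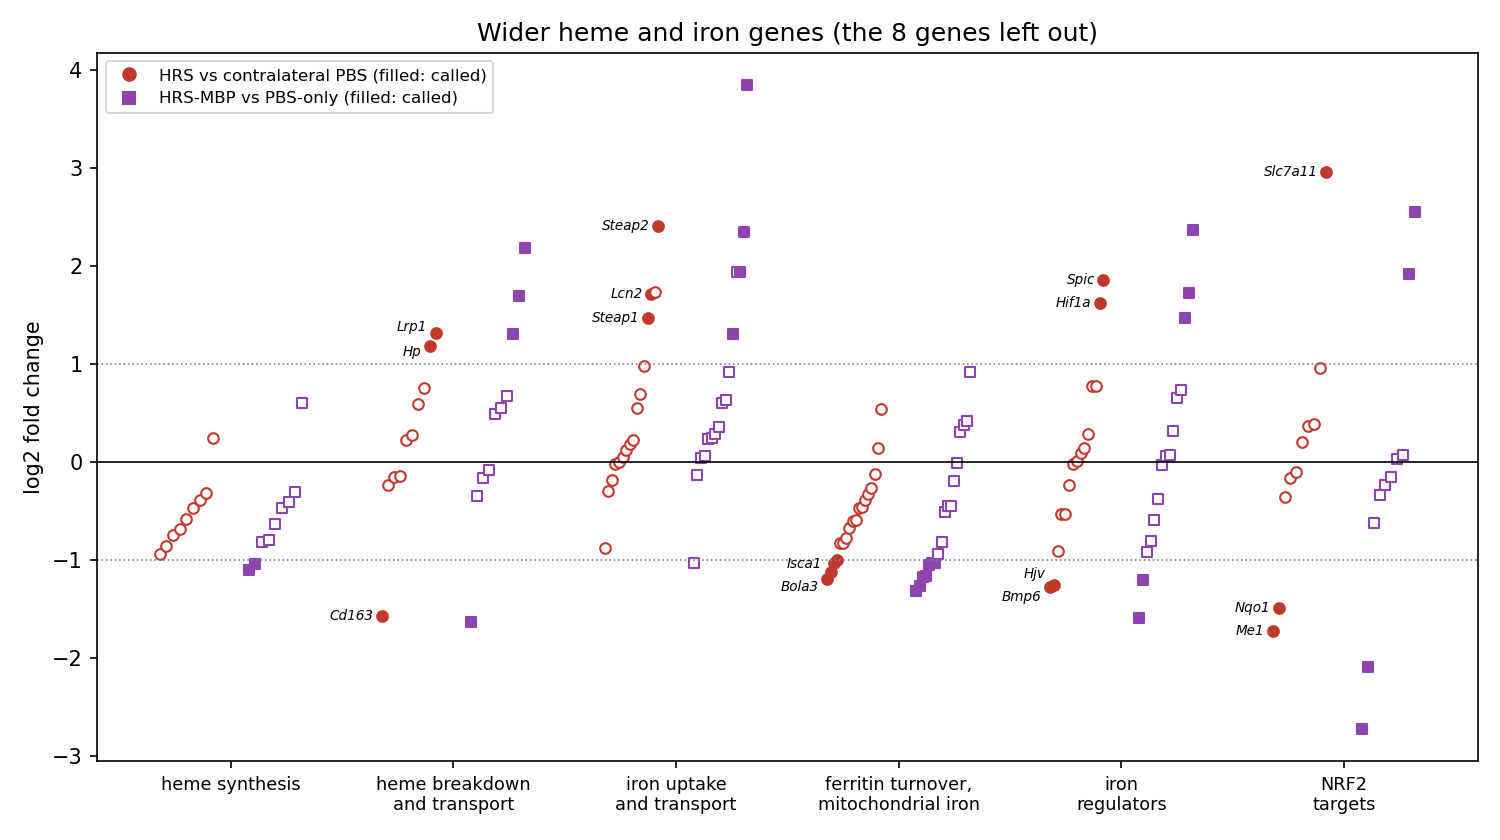
Log2 fold changes (vertical) of the wider heme and iron genes by list, with circles for HRS against contralateral PBS and squares for HRS-MBP against PBS-only, each point 1 gene and filled where called. Names are given for genes called in the first comparison, where heme synthesis has 0 of 9 called and a median of −0.58, and the mitochondrial list has 4 of 18 called, all lower.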

How the data were processed

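The authors sequenced bulk poly(A) RNA of mouse hamstring muscle as directional libraries and deposited 1 table of normalized counts per gene, a signal with no raw counts. The submitters' processing notes name STAR 2.7.8a, limma and the genome builds mm39 and GRCm39, whereas the table's own gene coordinates are those of GRCm38 with GENCODE M21. The exact normalization is not given in the sources used here. The low values formed steps, from which the depth of each library was implied, but only 74.9 to 77.0% of them were whole multiples (tolerance 0.02), so that reads were not recovered and no count model was used. Of 26382 genes, 25652 were matched to GENCODE M21.

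The 16414 genes whose mean reached 0.5 were tested as log2(normalized count + 0.5) with limma 3.58.1 in R 4.3.3, in 1 fit of 4 groups with a mean trend, and p-values were adjusted by Benjamini and Hochberg over all of them. A gene was called at an adjusted p under 0.05 and a log2 fold change beyond 1 in size. A fold change on this scale understates changes of low genes. Exact permutation tests of single genes, sequence searches and figures used Python 3.11.15, scipy 1.17.1 and pandas 2.3.3. On simulated data with 200 genes of 16414 changed by 1.5 on the log2 scale, the fit recovered 84.5% with 4 false calls in HRS against contralateral PBS, 69.5% with 7 in HRS-MBP against PBS-only and 75.5% with 6 in HRS-MBP against HRS. The simulated noise was independent between libraries, without legs of a shared mouse or a mouse set apart as m866 was. Far fewer genes were changed than were called against PBS in the data, so false calls from such features are not covered. Legs numbered alike come from the same mouse by the labels. The correlation of their deviations was 0.119, 0.163, 0.0972, −0.0256 and −0.366 for m862 to m866. Libraries of a group are from separate mice except in PBS-only, where both legs of each mouse were used.

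The alternatives were 2 other pseudocounts, no filter and a filter at a mean of 5, 3 rescalings, array weights, no trend, only the groups compared, a mouse block, PBS-only legs averaged by mouse and each library left out. Leaving out both libraries of m866, the adipocyte and Schwann cell lists and the sum of Ftl1 with Ftl1-ps1 were chosen after seeing the data. The 8 genes and all lists were chosen with earlier results of these data known. Beside the 8 genes, the named genes were, per list, up to 3 called genes with the highest and up to 2 with the lowest log2 fold change in HRS against contralateral PBS, any gene that was alone in being called in another comparison, and the 2 genes most correlated with each of the 8. Hmox2, Blvra, Cisd1, Adipoq and Trf were named after their values were seen. Ftmt, Hamp and Rhag were not analysed here, and some genes of the lists are counted but not reported by name.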

Additional observations from a re-analysis of the deposited data

Results flagged for a closer look

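In 24 groups of 4 or more libraries for the 8 genes, 2 values stood apart by Dixon's criterion, which chance meets in about 1 of 20 groups. Both belong to the contralateral PBS leg of m866, and they are Ftl1 at 365 normalized counts and Cp at 35.1, each the highest of 5 legs.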

How the results depend on the processing

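Of 117 counts of called genes over the alternatives, 111 were within 1.5 times the main count, and 858 of 880 fold changes kept their direction and call. HRS-MBP against HRS, with 0 calls, gave 1 under quantile normalization (Slc40a1), 2 under array weights (Hmox1 and Slc40a1) and 0 to 2 with 1 library left out. By exact permutation, 6 of the 8 genes were under 0.05, and 3 to 6 with 1 mouse left out (3 without m862, m863 or m864). That test was run on the 8 genes alone, so no share of all tested genes can stand beside these counts. With the mouse as a fixed replicate block none of the 8 calls changed, with adjusted p-values of 0.00261 for Hmox1, 0.00123 for Slc11a1, 0.0195 for Ftl1, 0.00971 for Cp and 0.00941 for Blvrb, and 3652 genes called against 3810. Rescaling to the same total moved the median of all genes in HRS against contralateral PBS from 0.08 to 0.45 and the share of calls that were higher from 73.0 to 92.8%, and quantile normalization moved them to −0.16 and 56.2%. Same-total rescaling reversed Slc40a1 (0.0558) and Tfrc (0.0783) in HRS against contralateral PBS and Slc40a1 (0.00892) in HRS against PBS-only, and left Tfrc within the fold limit in HRS-MBP against PBS-only (−0.94). Quantile normalization called Fth1 in HRS against PBS-only (1.003). In contralateral PBS against PBS-only, where no difference was called, Slc11a1 reversed under quantile normalization (−0.00996), array weights (−0.0912) and without both m866 libraries (−0.0164), and ranged from −0.19 to 0.22 with 1 library left out, below 0 without the contralateral PBS leg of m863 or m866 or the left PBS-only leg of m868. Slc40a1 there reversed without both m866 libraries (0.0301) and ranged from −0.22 to 0.15 with 1 library left out, above 0 without the contralateral PBS leg of m864, m865 or m866 or either PBS-only leg of m867. Over all genes, calls in HRS-MBP against HRS were 76, or 4 with those groups fitted alone, 13 with a filter at a mean of 5 and 886 with array weights, and with 1 library left out 25 to 590 (590 without HRS m864, 180 without HRS m866, 135 without HRS-MBP m860, 25 without HRS-MBP m861), in contralateral PBS against PBS-only 0 to 10, and in HRS against contralateral PBS 2510 with the filter at 5. The cause of these shifts was not tested. The lowest value of the 8 genes, 3.13, lay above the 3-read floor of every library.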

Other observations

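Over the 16 libraries, the genes whose log2 levels were most like those of Hmox1 were Arrb2 and Rhog (Pearson r = 0.997 for both), and for Slc11a1 they were Milr1 (0.995) and Aldh3b1 (0.992). Ftl1 was most like Eno1 (0.994), ahead of its own pseudogene Ftl1-ps1 (0.992), and Blvrb was most like Cdc42se1 (0.991) and Arpc1b (0.987). Cp was most like Nadk (0.977) and Ppp1r15b (0.973), and Fth1 like Rnf130 (0.968) and Rnaset2a (0.962). Tfrc was most like Amotl1 (0.965) and Cecr2 (0.960), and Slc40a1 like Ube2v2 (0.942) and Naa30 (0.941). The libraries share groups and the level of macrophage markers, so these values describe a common pattern over groups. In the same promoter windows as above, ACGTG, which holds the core of the hypoxia response element, was present in 3 of 10 windows, both of Tfrc and 1 of 2 of Blvrb, against 19.6% of all windows. The interferon-stimulated response element, the other motif searched, was in 0 of 10, against 3.44%. With so few windows, these shares cannot be told apart.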
